A study of Mus musculus with 2 samples.

Results

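The genes described here belong to 4 related microRNA (miRNA) families of rodents, Mir297, Mir466, Mir467 and Mir669, most of whose copies lie in a single intron of the gene Sfmbt2. They were chosen by name: every row of the count tables whose Ensembl identifier has, in GENCODE M21, a symbol made of one of these 4 names with at most 2 letters and an optional number after it. The rule found 69 of the 1973 miRNA genes counted: 21 Mir669, 25 Mir466, 17 Mir467 and 6 Mir297 genes. GENCODE M21 names 12 more genes of these families, 9 Mir669a and 3 Mir466 copies, which have no row among those used here.

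The counts come from small RNA sequencing (size range below 30 in the labels) of mouse forebrain at embryonic day 16.5. The study has a single group of 2 libraries, labelled biological replicates 1 and 2, each from total RNA of a pool of male and female B6NCrl embryos, with 41 embryos stated for the pool of replicate 2. No second tissue, stage, genotype or treatment was compared. The libraries held 5060112 and 4158686 counts on the strand of the annotated genes, and the values below are raw counts on that strand or counts per 1000000 of them (CPM).

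A miRNA is cut from a hairpin in a longer transcript, and bases 2 to 8 of the mature strand, the seed, pair with target mRNAs. Sfmbt2 encodes a Polycomb group protein, is imprinted and is expressed from the paternal copy in the early embryo and in extraembryonic tissue, where it is needed for the trophoblast of the placenta. The miRNA array in its intron arose in rodents by repeated duplication, and mice that lack the array have placental defects. Many copies are near-identical and rich in UG and CA repeats, so a short read often fits several of them.

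The repeat character is visible in the mature forms that the RefSeq table (GRCm38.p6) holds, which matched 8 of the 69 genes by symbol. They are shown as examples of the UG and CA repeats of these families. All 8 are of genes outside Sfmbt2, of which Mir466q had 2 counts in replicate 1 and the others none in either library. The seed is in capitals.
miR-466i-3p: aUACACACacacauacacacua
miR-466j: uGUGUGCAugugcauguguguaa
miR-466k: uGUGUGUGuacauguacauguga
miR-466q: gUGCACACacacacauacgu
miR-467f: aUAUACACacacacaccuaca
miR-467g: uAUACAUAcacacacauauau
miR-467h: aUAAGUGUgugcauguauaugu
miR-669n: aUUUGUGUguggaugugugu

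The 8 seeds are all different. Each of the 8 sequences holds an unbroken alternation of U and G or of C and A over 7 to 12 bases. The hairpins carry the same repeats, as in Mir466k, where the alternation runs over 23 bases and the capitals mark the mature sequence.
Mir466k: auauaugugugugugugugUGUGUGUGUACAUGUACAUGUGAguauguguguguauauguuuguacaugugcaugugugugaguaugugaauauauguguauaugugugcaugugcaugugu

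Mir466k lies on chromosome 3, 85467377 to 85467498, plus strand, and Mir466q on chromosome 3, 28419943 to 28420018, in an intron of Tnik on the same strand. Positions are those of GRCm38. Of the other genes shown, Mir669n lies on chromosome 3 (115979902 to 115979955, plus strand), Mir467g on chromosome 5 (34732853 to 34732972, minus) and Mir467h on chromosome 9 (115381819 to 115381939, plus). Mir466j lies on chromosome 10 (60960723 to 60960844, plus), Mir467f on chromosome 11 (69635400 to 69635519, minus) and Mir466i on chromosome 13 (17747473 to 17747593, plus). Introns of Slc30a7, Grk4, Fxr2 and Cdk13 overlap Mir669n, Mir467g, Mir467f and Mir466i on the opposite strand. Over all 69 genes, 54 hairpins held TGTGTGTG or its reverse complement CACACACA. The same motif was present in 165 of 1825 other miRNA genes, or 9.04%. The match was most frequent in the Mir466 genes, 24 of 25, and was found in 15 of 17 Mir467, 15 of 21 Mir669 and 0 of 6 Mir297 genes. The 2 Mir467 genes without it were Mir467c and Mir467e, which are among the 3 genes of the families with the most uniquely placed reads.

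Of the 69 genes, 59 lay inside Sfmbt2 (chromosome 2, 10370510 to 10595253, GRCm38), all on its strand and in a single intron of 62.5 kb. This is intron 10 in one protein-coding transcript and intron 11 in another, and none of the 59 overlapped an exon. They spanned 51.6 kb, from 96.2 to 148 kb after the start of Sfmbt2, with a median distance of 417 bases between neighbouring starts. The 10 Mir467a copies formed a regular array within that stretch, with a median step of 2462 bases (2413 to 4880) from one copy to the next. The other 10 genes lay on chromosomes 3, 5, 7, 9, 10, 11 and 13, and only Mir466q lay within a gene on its own strand.

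The families took 0.262% of all gene-strand counts in replicate 1 (13252 counts, exact Clopper-Pearson 95% interval 0.257% to 0.266%) and 0.237% in replicate 2 (9849 counts, 0.232% to 0.242%), a mean of 0.249% ± 0.0177 (SD, n = 2). Nearly all of that lay inside Sfmbt2, with 13250 of 13252 counts in replicate 1 and 9849 of 9849 in replicate 2. No read lay on the opposite strand of any of the 69 genes, which allows up to 0.0226% of their reads in replicate 1 and 0.0305% in replicate 2. Over all genes, 98.1% and 98.3% of counts were on the gene strand.

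The counts were spread very unevenly over the families. At least 1 count in either library was present for 20 of the 69 genes (29.0%), against 703 of all 1973 genes (35.6%). Of these 20, 10 had 10 or more counts in the libraries together, and these 10 also had at least 5 counts in both. These counts are of uniquely placed reads, so they do not rank the genes by all their reads. The 3 genes with the most such reads, all of the Mir467 family, held 81.8% of the families' counts in replicate 1 and 80.0% in replicate 2. The first 6 held 98.8% and 98.7%.

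**Figure D1:**
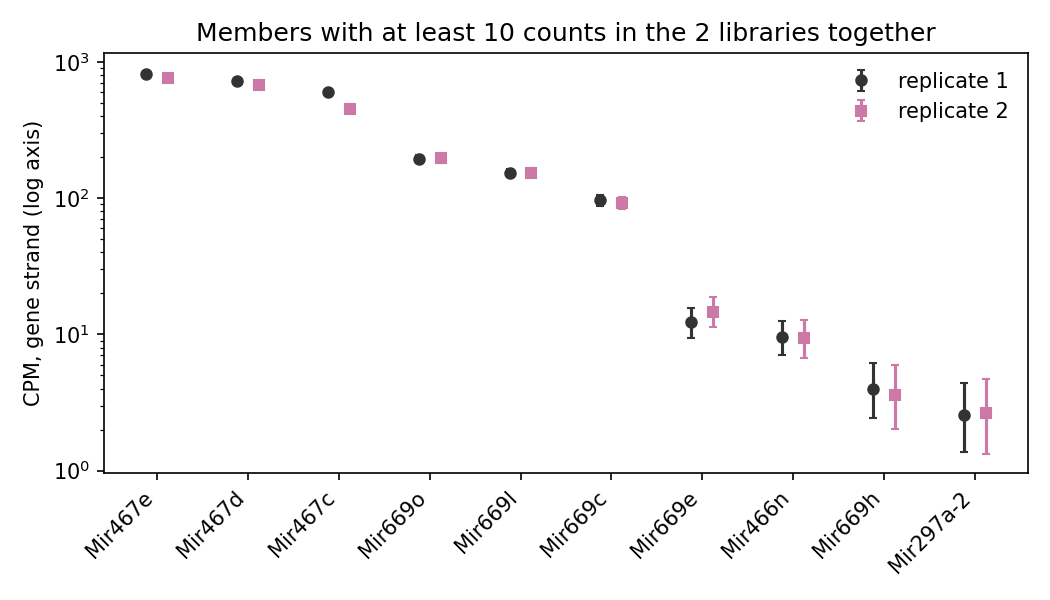
CPM on a log axis of the 10 genes with at least 10 counts in the 2 libraries together, as circles for replicate 1 and squares for replicate 2. Bars are exact Poisson 95% intervals, which cover counting error only. The 3 Mir467 genes sit between 451 and 816 CPM, 3 Mir669 genes between 91.6 and 196 CPM, and the other 4 genes at 14.7 CPM or below.

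The Mir467 family held the most uniquely placed reads. Mir467e (ENSMUSG00000076948.2, chromosome 2, 10505721 to 10505807) had 4131 counts in replicate 1 and 3174 in replicate 2, or 816 and 763 CPM, a mean of 790 ± 37.6 CPM (SD, n = 2). It ranked 91st among the 1973 genes by mean CPM. Mir467d (ENSMUSG00000077021.2, 10507630 to 10507714), which starts 1.91 kb further on, had 3693 and 2831 counts, 730 and 681 CPM, a mean of 705 ± 34.7.

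Mir467c (ENSMUSG00000077049.2, 10473931 to 10474027) lies on the other side of the Mir467a array and had 3022 and 1877 counts, 597 and 451 CPM, a mean of 524 ± 103. The order Mir467e, Mir467d, Mir467c held in both libraries. The 2 values of Mir467e did not overlap those of Mir467d, and the values of Mir467c were below both. Per base of annotated gene, Mir467d stood to Mir467e at 0.915 in replicate 1 (95% counting interval 0.875 to 0.957) and at 0.913 in replicate 2 (0.868 to 0.961). Mir467c stood to Mir467e at 0.656 (0.626 to 0.688) and 0.530 (0.501 to 0.562). The ratio of Mir467d to Mir467e was nearly equal in the pools, and that of Mir467c to Mir467e was lower in replicate 2 with intervals that do not overlap.

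The rest of the Mir467 family was almost without counts. Mir467a-1 and Mir467b had 1 count each, both in replicate 1. The other 9 Mir467a copies and Mir467f, Mir467g and Mir467h had none. With a limit of 3 counts, a gene at 0 could still have reached 0.593 CPM in replicate 1 or 0.721 CPM in replicate 2 by reads with a single placement. Such a 0 says nothing of reads that fit several genes.

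The Mir669 family came second in uniquely placed reads, and its 3 leading genes were close between the libraries in CPM, which uses unscaled library totals. With the TMM scaling described below, the log2 ratios of replicate 2 to replicate 1 were 0.16 for Mir669o, 0.15 for Mir669l and 0.08 for Mir669c. Mir669o (ENSMUSG00000077086.1, 10514300 to 10514395) had 982 and 814 counts, 194 and 196 CPM, a mean of 195 ± 1.18. Mir669l (ENSMUSG00000076959.1, 10468971 to 10469068) had 774 and 640 counts, 153 and 154 CPM, a mean of 153 ± 0.660. Mir669c (ENSMUSG00000076118.1, 10509296 to 10509404) had 486 and 381 counts, 96.0 and 91.6 CPM, a mean of 93.8 ± 3.13.

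These 3 kept their order in both libraries with no overlap between them. Their summed level was 443 CPM in replicate 1 and 441 in replicate 2. Mir669e had 62 and 61 counts, 12.3 and 14.7 CPM, and Mir669h had 20 and 15 counts, 3.95 and 3.61 CPM. Mir669f had 6 and 3 counts and Mir669d-2 1 and 0, and the other 14 of the 21 genes had none. Mir669a, a regulator of the muscle factor MyoD in cardiac progenitors, is represented by Mir669a-1, Mir669a-2 and Mir669a-3, all at 0. These zeros bound uniquely placed reads only. Mir669a-1 and Mir669a-2 share every stretch of 22 bases with another miRNA gene.

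The Mir466 and Mir297 families, with 31 genes between them, had few uniquely placed reads. Mir466n had 48 and 39 counts, 9.49 and 9.38 CPM, 80.0% and 92.9% of the counts of its family. Mir466 had 6 and 2 counts, Mir466f-2 and Mir466q 2 and 0, Mir466g and Mir466l 1 and 0, and Mir466b-3 0 and 1. Mir466l is known to raise interleukin-10 in macrophages by competing with a protein that destabilises its mRNA. The other 18 Mir466 genes had none. Mir297a-2 had 13 and 11 counts, 2.57 and 2.65 CPM, and the other 5 Mir297 genes had none.

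Over the 10 genes with at least 10 counts, the order by CPM was the same in replicates 1 and 2. Dividing by the length of the annotated gene left that order as it was in replicate 1 and exchanged the last 2 genes, Mir669h and Mir297a-2, in replicate 2. Mir669e and Mir466n did not overlap over the 2 libraries, but the Poisson intervals of these neighbours did, at 9.39 to 15.7 CPM and 6.99 to 12.6 CPM in replicate 1. The intervals of Mir669h and Mir297a-2 also overlapped. A difference in level within either pair was not tested.

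Along the intron, the counts of uniquely placed reads lay at both ends of the array. The stretch from the first to the last Mir467a copy, 27.0 kb long and chosen as a division after the counts were seen, held 23 of the families' genes and 2 counts in replicate 1 and 0 in replicate 2. The 15 genes before it held 3880 and 2592 counts, 29.3% and 26.3% of the families' total. The 21 genes after it held 9368 and 7257 counts, 70.7% and 73.7%. In CPM the stretch before was at 767 and 623, and that after at 1851 and 1745. Every stretch of 22 bases was shared with another miRNA gene in 19 of the 23 genes in between. This held for 0 of the 15 genes before and 1 of the 21 after. The part of shared sequence in this pattern was not tested.

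**Figure D2:**
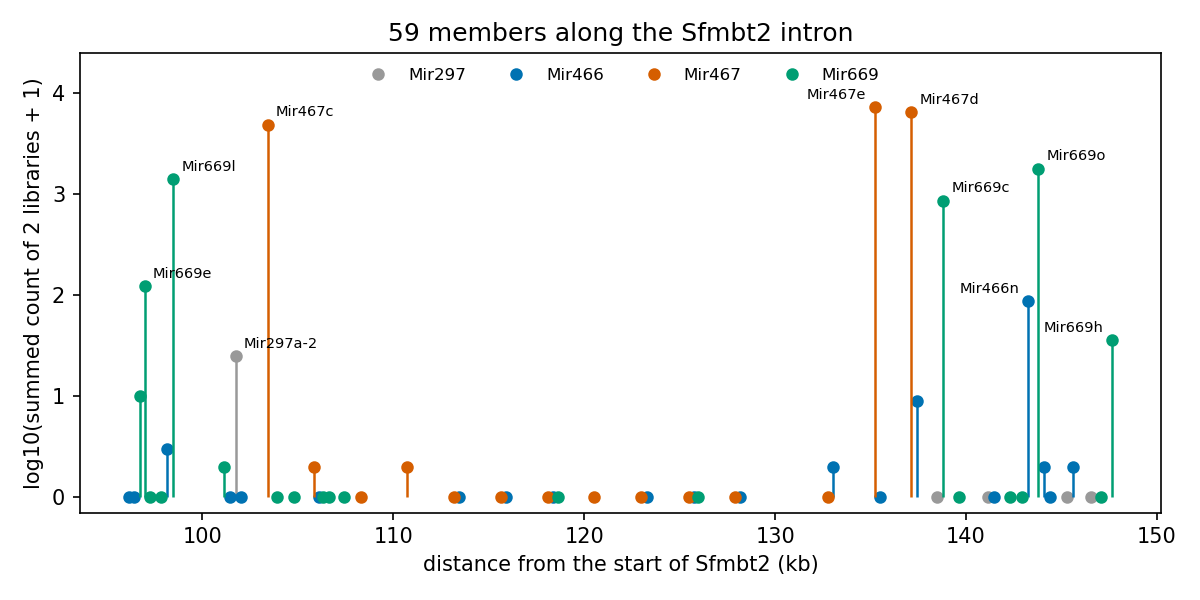
Summed count of the 2 libraries, as log10(count + 1), for the 59 genes inside Sfmbt2 against the distance in kb from the start of Sfmbt2, coloured by family. The genes with 10 or more counts are named and start between 97.0 and 103 kb or between 135 and 148 kb. The 23 genes from the first to the last Mir467a copy stay at 0 or 1 count. Of these 23, 19 share every stretch of 22 bases with another miRNA gene.

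Neighbours that belong to one host transcript had very different counts. Mir466p lies 198 bases after Mir467e and had 0 counts against 4131 and 3174. Per base of gene, the lower end of the 95% counting interval put Mir467e 1145-fold higher in replicate 1 and 880-fold higher in replicate 2. Mir466 lies 203 bases after Mir467d, which was 529-fold higher per base in replicate 1 (95% counting interval 243 to 1441) and 1216-fold in replicate 2 (336 to 10043), against 6 and 2 counts of Mir466. Mir466g lies 199 bases after Mir669o, which was 818-fold higher per base in replicate 1 (147 to 32355). In replicate 2, with 0 counts of Mir466g, the lower end of the interval was 183-fold. These ratios are of uniquely placed reads only.

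Sequence shared between miRNA genes, which limits the placing of reads, was examined from the hairpins of GENCODE M21. A hairpin was cut into all windows of 22 bases, and a window was called unique when it occurred in no other miRNA gene on either strand. The windows covered the whole hairpin and were not limited to the mature strands. A percent of unique windows therefore does not say whether the mature reads of a gene can be placed. At least 1 window was shared with another miRNA gene in 67 of the 69 genes (97.1%), against 837 of 1825 other miRNA genes (45.9%). No window was unique in 20 of the 69 genes (29.0%), against 240 of the 1825 (13.2%). Among the 20 were all 10 Mir467a copies, 6 Mir466 and 4 Mir669 genes, and 19 of them lie between the first and the last Mir467a copy.

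Of these 20 genes without a unique window, 1 had a count (Mir467a-1, with 1). Of the 49 genes with a unique window, 19 had a count, or 38.8%. Among all genes with a hairpin in GENCODE M21, 9 of 260 without a unique window had a count (3.46%) and 693 of 1634 with one (42.4%). The 9 include Mir30e, with 128929 and 95137 counts, and Mir451a, with 1207 and 634. A gene without a unique window can thus have many counts. Annotated genes that overlap at one locus were not set apart from separate copies. In 5 groups, 15 of the 69 genes have hairpins identical to that of another of them, the largest group being 6 Mir467a copies, and these 15 genes had 0 counts together. The part of shared sequence in the zeros was not tested, since the deposited tables total reads that fit several loci without assigning them.

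**Figure D3:**
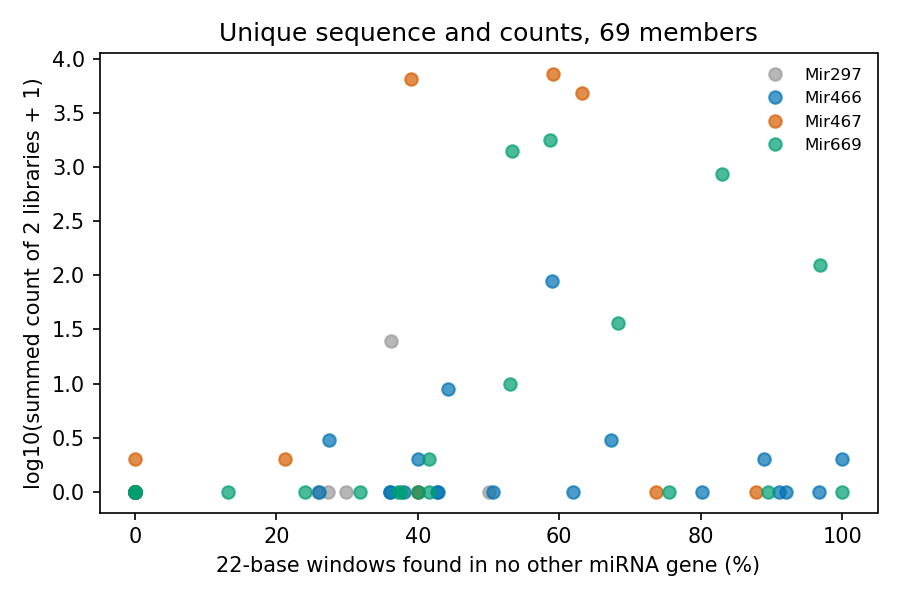
Summed count of the 2 libraries, as log10(count + 1), against the percent of 22-base windows of the hairpin found in no other miRNA gene, for the 69 genes coloured by family. The 20 genes at 0% unique windows have at most 1 count, and genes at 100% unique windows have 0 or 1 count. Mir467c, Mir467d and Mir467e lie between 39.1% and 63.2%.

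The genes with the most unique sequence were not those with the most uniquely placed reads. Genes with many such reads were partly shared. Unique windows made up 59.1% in Mir467e, 39.1% in Mir467d, 63.2% in Mir467c and 58.7% in Mir669o. At least 90% of windows were unique in 6 genes. Mir669e, at 96.9%, had 62 and 61 counts. Mir466g, at 100%, had 1 and 0, while Mir466h, Mir466j, Mir466f-4 and Mir669n, at 96.7%, 91.1%, 92.0% and 100%, had none. Mir466j, Mir466f-4 and Mir669n lie outside Sfmbt2. These windows were compared with miRNA genes only, and matches elsewhere in the genome were not examined.

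The same intron held 48 further annotated miRNA genes with a row, all named Gm followed by a number. Of these, 4 had a count, with 7 counts in replicate 1 and 2 in replicate 2 over all 48 and at most 3 for a single gene. No unique window was found in 22 of the 48. For comparison, the imprinted miRNA genes between Dlk1 and Dio3 on chromosome 12 had a count in 47 of 51, and 2 of these 51 lacked a unique window. The 5 miRNA genes in an intron of Clcn5 all had counts and all had unique windows. TGTGTGTG or CACACACA was in 0 hairpins of either set.

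The difference between the pools was examined by an exact binomial test (two-sided) that splits the summed count of a gene between the libraries, with library totals scaled by TMM (the trimmed mean of M values) and p-values adjusted by the Benjamini-Hochberg method over all 466 genes with at least 10 counts in sum. This test treats reads as independent and compares 2 libraries, not conditions. Of the 10 genes tested here, 1 was called at an adjusted p under 0.05, against 45.3% of all tested genes. It was lower in replicate 2, where 21.9% of all tested genes were called lower and 23.4% higher. The median log2 ratio of replicate 2 to replicate 1 was 0.10 over the 10 genes and 0.01 over the 466. Without regard to sign it was 0.14 over the 10 genes and 0.33 over the 466.

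**Figure D4:**
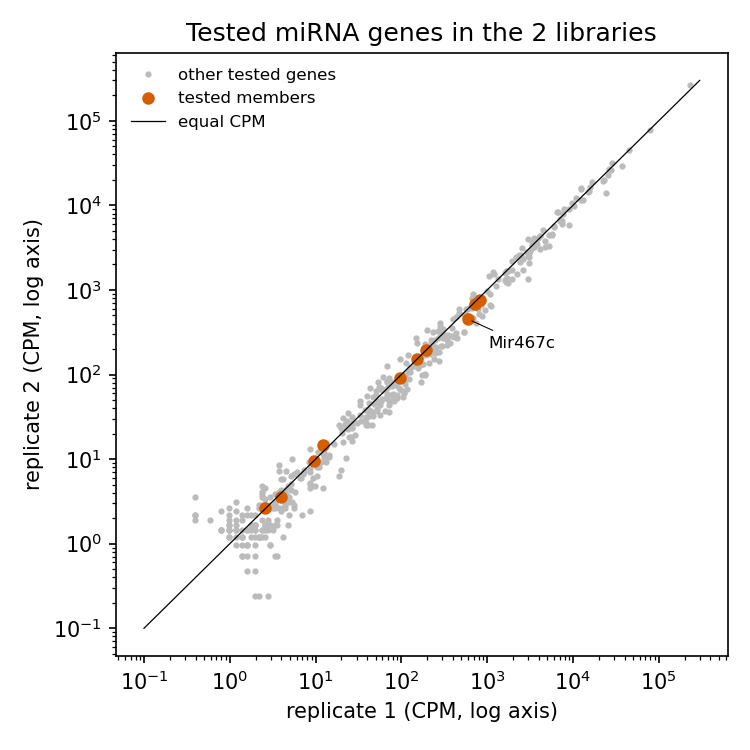
CPM in replicate 2 against CPM in replicate 1, both on log axes, for the 466 tested genes, with the 10 tested genes of the 4 families in orange and a line of equal CPM. The 10 genes lie close to the line, and Mir467c lies below it at 597 and 451 CPM.

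The gene called was Mir467c, with 3022 and 1877 counts. Its log2 ratio was -0.26 (95% counting interval -0.34 to -0.18), with an adjusted p of 2.93e-09 in the exact binomial test. Mir467e and Mir467d had log2 ratios of 0.05 and 0.04, with adjusted p of 0.289 and 0.368 in the same exact test. Mir669o was at 0.16 with an adjusted p of 0.0512 in the exact test. With reads of both strands counted for all genes, its adjusted p in the exact test was 0.0374. That setting left the counts of Mir669o unchanged and altered only the library totals, their scaling and the genes tested. The remaining 6 had log2 ratios of 0.02 to 0.40, with intervals that include 0. With unscaled totals, which shift each ratio by -0.14, Mir467c was at -0.40, and Mir467e at -0.10 and Mir467d at -0.10 were also called lower, with adjusted p of 4.68e-21, 0.0106 and 0.0127 in the exact test.

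Marker miRNAs give the tissue beside which these levels stand. All 8 neural markers had counts, 34552 CPM in replicate 1 and 31212.5 CPM in replicate 2 in sum, led by Mir137. They were uneven, with Mir219a-1 at 169 and 162 CPM and Mir124a-1 lowest at 4.94 and 3.61 CPM. Mir124a-1 and Mir9-3 share 22-base windows with other miRNA genes, at 67.2% and 87.0% of windows unique. Their values are of uniquely placed reads only, and a low value does not show that the miRNA is scarce. The list of pluripotent and trophoblast-linked miRNAs summed to 299 and 158 CPM, with counts for 7 of 8 genes and Mir295 at 0. Mir302a, Mir302b, Mir302c and Mir302d held 295 and 155 CPM of that, and Mir291a, Mir292 and Mir294 at most 1.78 CPM each. The lists of blood and microglia (403 and 392 CPM, 4 of 4 genes with a row), liver (97.8 and 64.9 CPM, 1 of 1) and muscle (43.7 and 36.8 CPM, 3 of 3) are given beside the families' 2619 and 2368 CPM. The part of any of these cells in the counts was not tested. In such a pool of whole tissue, fewer cells of a type and less RNA per cell cannot be told apart.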

How the data were processed

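Small RNA of E16.5 mouse forebrain was measured in 2 libraries of 1 group. The deposited tables hold raw read counts per gene without strand and for each strand, on mm10 with GENCODE M4 per the deposited file descriptions. Aligner, counting tool and trimming were not given in the sources used here. In the authors' tables, multiply placed reads form a row of their own, 40.5% and 43.3% of all reads, with 19.1% and 15.2% unmapped and 2.50% and 2.82% outside the listed genes, and these stayed out of library totals. For that reason a count is read as uniquely placed reads, both arms of a hairpin together.

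The strand column with the larger total was used. Symbols, positions and hairpins came from GENCODE M21 by identifier (1894 of 1973 genes), mature sequences from RefSeq. Values are mean ± SD of the 2 libraries, which have separate biosample records in the labels. The test sets their difference against counting error and estimates no spread between pools. The binomial test ran in scipy 1.17.1 with TMM from edgeR 4.0.16 in R 4.3.3. It covered genes with at least 10 counts in sum, and 0.5 was added for log2 ratios. The test was first tried on simulated counts that held counting error only, without spread between pools and without TMM scaling. The quasi-likelihood test of edgeR was not run for lack of another group. No molecular identifiers are described, so all intervals reflect counting error alone. Families and lists were chosen with earlier results of these data known. Genes with at least 10 counts in sum, and those with 1 to 9, are named, with zeros given mostly by number. Alternatives were both strands, other scalings (DESeq2 1.42.0 size factors, unscaled totals), other filters and denominators, and each library alone.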

Additional observations from a re-analysis of the deposited data

Results flagged for a closer look

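Reads that map to several loci were counted for no gene, and they made up 41.9% ± 2.04 of all reads (SD, n = 2), 5506866 in replicate 1 and 4752799 in replicate 2. They drew attention because this signal lies outside the counts used for the genes and is 416 and 483 times the counts of the 4 families. How many of these reads come from the Mir297, Mir466, Mir467 and Mir669 genes was not tested.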

How the results depend on the processing

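No paired analysis was possible because both libraries belong to one group. The 20 genes with a count became 10 when at least 5 counts in both libraries were asked for, 13 to 19 when 1 library was left out, and 19 inside Sfmbt2 only. The share of 0.249% of gene-strand counts ranged from 0.237% to 0.262% with 1 library left out and was 0.0936% of all reads, a larger denominator by construction. The count of genes called between the libraries was 1 by TMM, by DESeq2 size factors and with a summed count of at least 1, 2 with reads of both strands (Mir467c lower and Mir669o higher) and 3 with unscaled totals, all lower. Mir467c was called lower under every one of these settings, with log2 ratios of -0.25 to -0.40. With unscaled totals the log2 ratio turned negative for Mir467e (-0.10), Mir467d (-0.10), Mir669c (-0.068), Mir466n (-0.013) and Mir669h (-0.12), since all ratios shift by -0.14. Adding 1 in place of 0.5 changed no direction, and it does not enter the test. Sequence sharing was found in 67 genes with 22 bases and 68 with 18. Depth limits the 10 genes with 1 to 9 counts, and the 49 zeros bound uniquely placed reads only.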
